A study of Mus musculus with 9 samples.

Results

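H3K27ac was examined at 9 genes taken as B-cell identity genes, in naive CD8+ T cells with and without Tcf1 and Lef1. The genes were chosen by name, with earlier results of these data known. They were the transcription factors Ebf1 and Spib, the B-cell receptor chains Cd79a and Cd79b, and the signaling adaptors Blnk and Bank1. The others were the surface proteins Cd22 and Ms4a1, and Cd74 of the antigen-presentation pathway. All 9 were found among the 22238 protein-coding gene symbols of the mm9 annotation. For each gene, islands of H3K27ac were collected from the gene body and the 50 kb upstream of its start site, and an island that touched this window was counted whole.

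B-cell identity is set by a network in which Ebf1 and its partners switch on the receptor chains and the signaling proteins that carry the receptor's message. Mature CD8+ T cells do not use this program, and Tcf1 and Lef1 are transcription factors of the T lineage. Acetylation of a lysine on the tail of histone H3, read as H3K27ac, marks active promoters and enhancers, and islands are stretches where its ChIP-seq reads are denser than in input DNA.

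The series compared WT and dKO cells by H3K27ac ChIP-seq, with 4 WT and 3 dKO libraries and 1 input library per genotype, 9 samples in all. All mice carried the hCD2-Cre transgene and the Rosa26-GFP reporter. WT mice were Tcf7+/+ and Lef1+/+, whereas in dKO mice the alleles were Tcf7 fl/fl together with Lef1 fl/fl. Tcf7 encodes Tcf1, and the hCD2-Cre transgene acts mainly in T cells that have matured and left the thymus. GFP+ TCRbeta+ CD62Lhi CD44lo-med CD8+ cells were sorted from the spleen, and the mice were 6 to 12 weeks old. The libraries of each genotype were pooled before the islands were called, and each genotype therefore has 1 value per gene, with no spread between replicates and no test of the genotype.

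The WT list held 65563 islands with 82668007 counts and the dKO list 82213 islands with 57665047 counts. Counts were therefore divided by the total of their own list and are given on the scale of CPM, counts per 1000000 of the list. The 14 CD8+ T-cell marker genes, among them Cd3e, Cd8a and Lck, all had a promoter island in both lists, with a median of 292 CPM in WT and 302 CPM in dKO. Cd4 also carried a promoter island in both lists. Of 7 further B-cell marker genes (among them Pax5, Fcer2a, Cr2, Vpreb1, Vpreb3 and Igll1), all had islands in both lists. A promoter island was found at 5 in WT and 7 in dKO. Their summed level was 557 CPM in WT and 687 CPM in dKO, in which Igll1 and Vpreb1 share their WT islands. By a ratio of 1.5, 2 were higher in dKO and 1, Fcer2a, was lower (log2 -1.20), beside 11.5% of all genes in each direction. By scaled counts per covered kb, their median log2 ratio was -0.38, with 1 of the 7 above 0, beside a median of -0.16 over all genes. Of 8 myeloid marker genes, promoter islands were found at 5 in WT and at 8 in dKO. The scaled counts of these genes did not rise as a set. S100a9 had an island in dKO alone and so no ratio. Among the other 7, the log2 ratio was above 0 at 2, and its median was -0.08. By the ratio of 1.5, 0 were higher in dKO and 1 was lower. Per covered kb the median was -0.15. In both lists alike, promoter islands were found at 2 of 5 NK-cell, 2 of 3 erythroid and 2 of 3 plasma-cell marker genes. Over all protein-coding genes, promoter islands were found at 63% in WT and 63.3% in dKO. In a sorted bulk population, a few cells of another type and a low level of the mark in every cell cannot be told apart, and the part of such cells in the results below was not tested.

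Every B-cell identity gene had at least 1 H3K27ac island in its window in both WT and dKO cells. The windows of 73.7% of all protein-coding genes did so, while 1.36% had islands in WT alone and 1.41% in dKO alone. The 9 windows held 47 islands in WT, covering 428.2 kb with 88756 counts, and 55 islands in dKO, covering 438 kb with 59787 counts. Summed over the genes, this came to 1074 CPM in WT and 1037 CPM in dKO. Raw counts per covered kb, not divided by the list total, had a median of 188 in WT and 118 in dKO. The medians over all genes were 227 and 137. These raw values differ between the lists also because the list totals differ, and ratios per covered kb given below are of scaled counts. The CD8+ T-cell markers had medians of 335 and 224 raw counts per covered kb.

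At promoters, defined as 1 kb either side of an annotated start site, 8 of the 9 genes had an island in both genotypes. Both lists held a promoter island at 60.7% of all protein-coding genes. The exception was Ebf1, whose island nearest to the outermost start site lay 34.4 kb upstream in WT and 34.6 kb upstream in dKO. No B-cell identity gene had a promoter island in 1 genotype alone, a class that took 2.32% of all genes for WT and 2.66% for dKO. With promoters of 2 kb either side, Ebf1 gained an island in WT, next to an annotated start site inside the gene.

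Promoter sequences were taken from RefSeq (GRCm38.p6) and placed by exact match in mm9. The table gave 7 promoters for 6 of the genes, and none was found there for Cd79b, Ms4a1 or Cd74. The 4 shown are those of the 2 genes called changed below, Blnk and Bank1, and of Cd22 and Cd79a, whose promoters held a motif match inside an island in both genotypes. Each line gives the 250 bases before the start site, 5′ to 3′ on the gene's own strand, with the motif matches in capitals.
Cd22, mm9 chr7:31664048-31664297, minus strand: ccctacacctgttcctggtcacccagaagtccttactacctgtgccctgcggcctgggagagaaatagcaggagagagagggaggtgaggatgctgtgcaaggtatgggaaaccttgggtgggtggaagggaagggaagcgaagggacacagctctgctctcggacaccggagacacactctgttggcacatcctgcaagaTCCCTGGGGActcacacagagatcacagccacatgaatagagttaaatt
Blnk, mm9 chr19:41068712-41068961, minus strand: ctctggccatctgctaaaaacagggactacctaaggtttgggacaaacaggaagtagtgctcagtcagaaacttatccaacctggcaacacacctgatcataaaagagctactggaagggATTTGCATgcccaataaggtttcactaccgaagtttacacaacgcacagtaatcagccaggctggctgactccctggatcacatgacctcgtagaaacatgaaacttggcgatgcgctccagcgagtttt
Cd79a, mm9 chr7:25682266-25682515, plus strand: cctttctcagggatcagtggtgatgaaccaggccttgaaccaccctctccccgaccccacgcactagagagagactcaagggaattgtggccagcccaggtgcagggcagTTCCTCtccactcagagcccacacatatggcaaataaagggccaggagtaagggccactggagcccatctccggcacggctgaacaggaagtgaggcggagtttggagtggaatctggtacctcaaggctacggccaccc
Bank1, mm9 chr3:135989031-135989280, minus strand: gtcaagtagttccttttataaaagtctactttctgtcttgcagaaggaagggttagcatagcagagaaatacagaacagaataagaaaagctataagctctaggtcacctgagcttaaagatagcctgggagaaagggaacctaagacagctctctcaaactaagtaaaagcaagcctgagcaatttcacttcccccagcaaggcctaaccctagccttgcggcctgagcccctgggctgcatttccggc

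The capitals in the Cd22 promoter mark an EBF core (TCCCNNGGG), read on both strands at the same place, from -49 to -40 of the start site. In Blnk they mark an octamer (ATGCAAAT), the site of Oct factors, on the opposite strand from -130 to -123. In Cd79a they mark an Ets site of the PU.1 and Spi-B type (GAGGAA), on the opposite strand from -140 to -135. No motif searched was found in the Bank1 or Spib promoter, and no promoter held the E-box CAGCTG. The Tcf/Lef motif CTTTGA was found once, on the opposite strand of the first of the 2 Ebf1 promoters, from 39 to 44 after the start site, and the second Ebf1 promoter held an Ets site from -130 to -125. Among all 32851 promoters of 300 bases in the table, the EBF core was found in 6.56%, the octamer in 1.74%, the Ets site in 28.3%, the Tcf/Lef motif in 16.0% and the E-box in 16.3%, on either strand. These matches are letters in a window and say nothing of binding. The Cd22 start site of RefSeq was an annotated start site of mm9, 1314 bp downstream of the outermost, and those of Spib and Bank1 were the outermost start sites themselves.

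Scaled H3K27ac counts were higher in dKO at 2 of the genes, Cd79b and Blnk, and lower at the other 7. Over all genes with islands in both lists, 47.5% were higher in dKO. Of the 7, Cd79a and Ms4a1 had intervals that include 0 and turned positive when every log2 ratio was raised by 0.07 with the other scalings. At a ratio of 1.5 either way, only Blnk rose and only Bank1 fell, 1 gene in each direction, whereas 11.5% of the 16387 genes with islands in both lists were higher in dKO by this rule and 11.5% were lower. The log2 ratios of dKO to WT ran from -1.68 to 0.62 with a median of -0.12, and the median over all genes was -0.03, with a 5th percentile of -0.90 and a 95th of 0.98. Scaled counts per covered kb, which set aside how wide the islands were, gave log2 ratios from -0.52 to 0.09 with a median of -0.11. No B-cell identity gene passed the ratio of 1.5 by this measure. By that measure 0.421% of all genes were higher and 9.28% lower in dKO, with a median of -0.16. The intervals given below are 95% Wilson intervals of the pooled counts and cover counting error only.

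**Figure D1:**
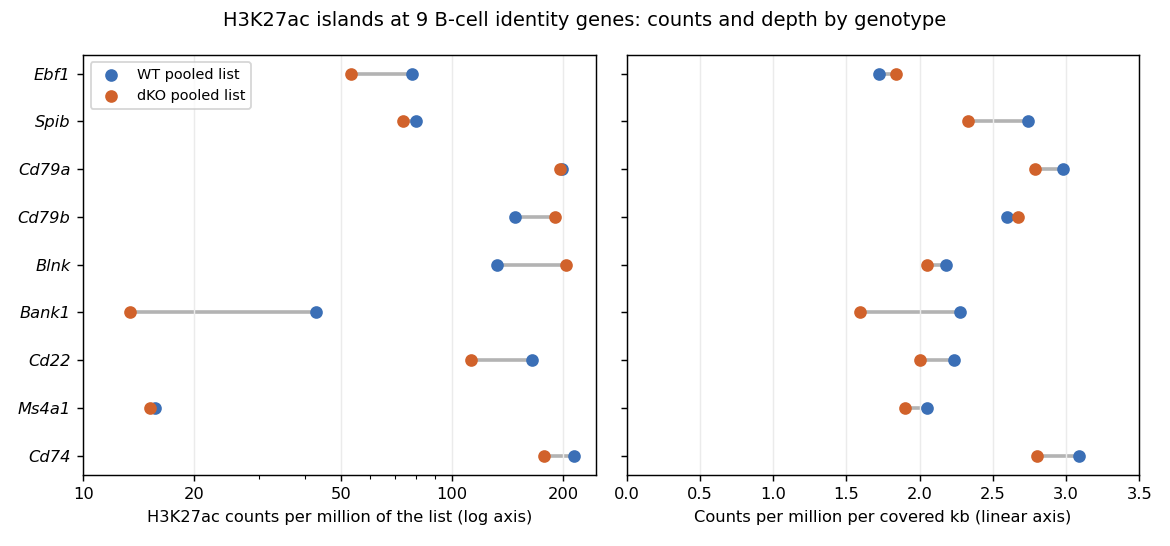
H3K27ac level at the 9 B-cell identity genes in WT (blue) and dKO (orange), 1 pooled list per genotype and so without error bars. The left panel gives CPM on a log axis, where Bank1 moved from 42.8 in WT to 13.4 in dKO and Blnk from 132 to 204. The right panel gives CPM per covered kb, where Bank1 was at 2.28 in WT and 1.59 in dKO and Blnk at 2.18 and 2.05.

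The windows held 51 merged regions, formed by joining overlapping islands of both lists. Of these, 32 had islands in both genotypes, 9 in WT alone (17.6%) and 10 in dKO alone (19.6%). Across the genome, 12.8% of regions were in the WT list alone and 28.1% in the dKO list alone. Of the 10 regions in dKO alone, 7 belonged to Blnk, and of the 9 in WT alone, 5 belonged to Bank1. Among the 32 regions with islands in both genotypes, 2 were higher in dKO by 1.5-fold and 10 were lower (31.2%), beside 11.1% higher and 14.6% lower over all such regions. The 10 lower regions were spread over Ebf1 (4), Cd22 (2), Bank1 (2), Cd79a (1) and Cd74 (1). By scaled counts per covered kb, 4 of the 32 were lower and 1 was higher, and 3 were lower by both measures. The shares over all regions were not computed for that measure. In 11 of the 32, dKO had more islands than WT (34.4%), beside 17.6% of all regions with islands in both lists. In 3 it had fewer (9.4%), beside 9.8% of all such regions. The regions at these genes reached 71.2 kb, whereas the median island was 3.6 kb wide in WT and 3 kb in dKO. The shares were not matched for width.

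**Figure D2:**
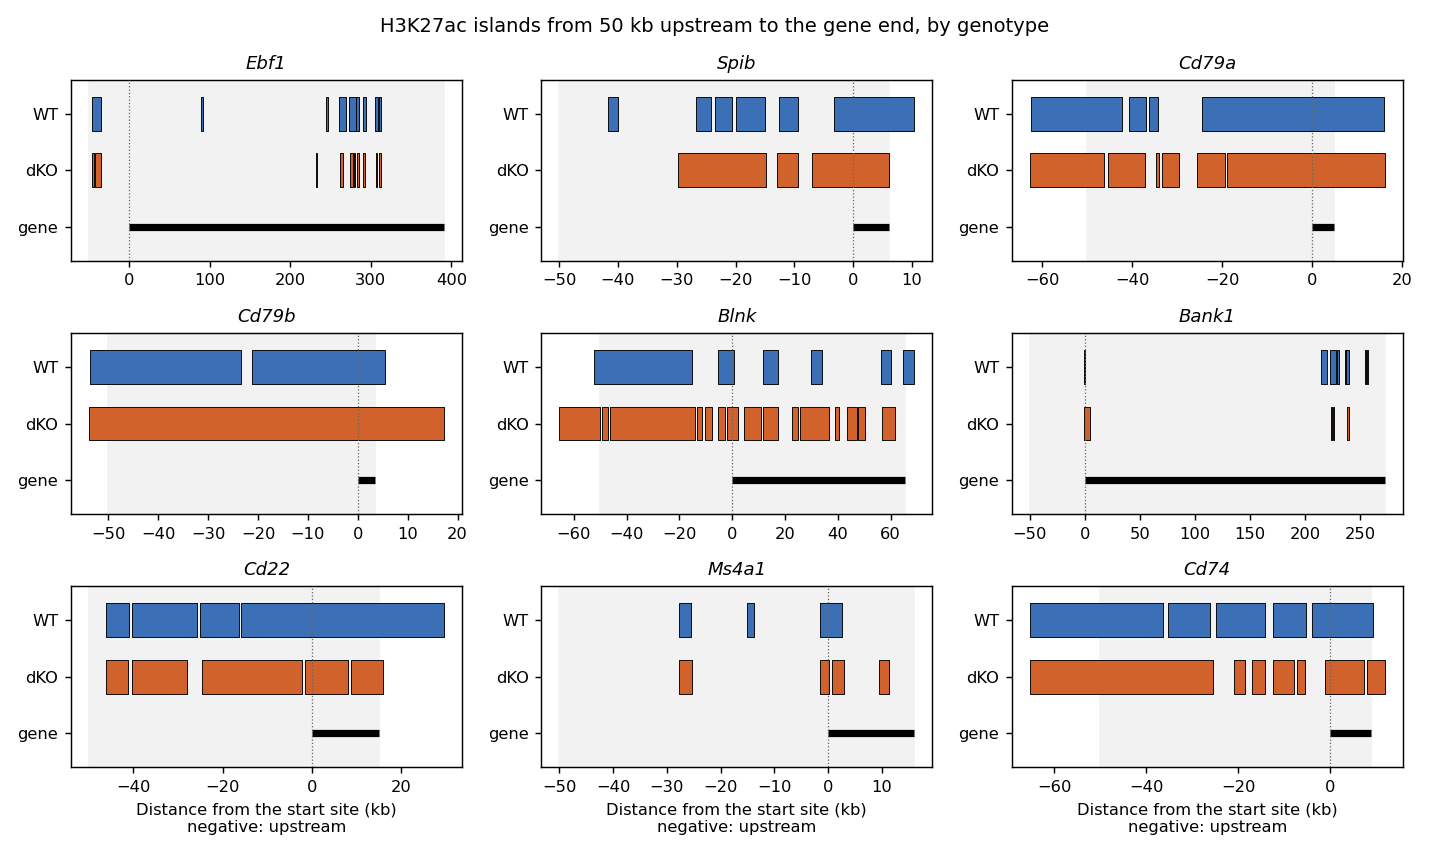
Islands of H3K27ac (boxes) in WT and dKO by distance from the start site of each gene in kb, with the gene drawn as a black bar and the window searched in gray; the horizontal scale differs between panels. At 215 to 257 kb into Bank1, 7 islands stood in WT and 3 in dKO, Blnk had 7 dKO regions with no WT island, and at Cd79b 1 dKO island of 71.2 kb filled the window.

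Bank1, a scaffold that ties the B-cell receptor to Lyn and calcium release, changed most. Bank1 (ENSMUSG00000037922.8; chr3:135716327-135989030, minus strand, 17 exons) had 3541 counts in WT, spread over 18.8 kb, against 770 in dKO, spread over 8.4 kb. This came to 42.8 and 13.4 CPM (log2 -1.68, interval -1.79 to -1.57). Of its 8 regions, 5 had no dKO island, and reads there below the calling limit are not in the dKO sum. Over the 3 regions with islands in both genotypes the log2 ratio was -0.89, still past the 1.5-fold rule. No other gene's promoter lay in its islands. The log2 ratio was negative under all 13 alternatives computed for it, from -2.25 to -0.52.

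The fall at Bank1 lay far from its promoter. Inside the gene, between 215 and 257 kb from the start site and from intron 7 to intron 11, WT had 7 islands with 3407 counts and dKO had 3 islands with 387 counts. The 2 regions there with islands in both genotypes had log2 ratios of -1.34 and -1.95. The largest of them spanned exon 9 in WT (chr3:135760601-135766000) and held 1463 counts over 5.4 kb, whereas dKO had 2 islands there with 264 counts over 2.4 kb (log2 -1.95, and -0.78 per covered kb). The 5 regions present in WT alone had between 134 and 697 counts each, at 1.54 to 2.45 CPM per kb. The 5th percentile of all islands in the WT list was 1.29 CPM per kb and the median 1.72, and the 5 regions lay on both sides of this median.

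The Bank1 promoter went the other way. In WT the promoter island was 0.8 kb wide with 134 counts, and in dKO it was 4.6 kb wide, reaching into intron 1, with 383 counts, 1.62 against 6.64 CPM (log2 2.03, interval 1.75 to 2.32). Per covered kb the log2 ratio was -0.49, but this averages the dKO island over a wider span than the WT island. Depth over the 0.8 kb of the WT island alone is not given by the island totals. Thus the promoter island was wider in dKO, while the intronic cluster was reduced in number, width and depth.

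Blnk, the adaptor that links Syk to phospholipase C, was the gene that rose by the 1.5-fold rule. Blnk (ENSMUSG00000061132.7; chr19:41003417-41069025, minus strand, 17 exons) had 10953 counts in 6 islands over 60.8 kb in WT and 11779 counts in 15 islands over 99.6 kb in dKO, which came to 132 and 204 CPM (log2 0.62, interval 0.59 to 0.66). Per covered kb the ratio was -0.09. When the islands outside the window that complete the merged regions were added, the log2 ratio was 0.39, and over the regions with islands in both genotypes alone it was 0.17, both below the 1.5-fold rule. The promoter of Dntt, which encodes the terminal transferase of immature lymphocytes, lay in an upstream island that held 71.8% of the WT counts and 45.5% of the dKO counts.

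Inside the gene, dKO had more and wider islands than WT. Regions inside the gene, apart from the promoter, had 2267 counts in 4 islands over 17.6 kb in WT and 3504 counts in 9 islands over 41.2 kb in dKO, 27.4 against 60.8 CPM. Of these 9 regions, 5 had no WT island, and the 4 with islands in both genotypes had log2 ratios from -0.26 to 1.45. The region from intron 2 to intron 6 widened from 4 kb with 536 counts in WT to 11 kb with 1020 counts in dKO (log2 1.45). The promoter region, which holds the octamer shown above, had 825 counts in WT and 764 in dKO, or 9.98 and 13.2 CPM (log2 0.41). The 7 regions found in dKO alone had 128 to 523 counts each, at 1.35 to 1.55 CPM per kb, near the dKO list's 5th percentile of 1.30 and below its median of 1.71.

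The B-cell receptor chains lay in broad H3K27ac, and their islands also covered promoters of other genes. Cd22 lay in a broad island in WT, whereas the widest islands counted for Cd74 and Blnk lay upstream of the gene. Cd79a, which encodes the Ig-alpha chain (ENSMUSG00000003379.7; chr7:25682400-25687216, plus strand, 5 exons), had 16386 counts in WT and 11316 in dKO, or 198 and 196 CPM (log2 -0.01, interval -0.05 to 0.02). The gene lay whole inside an island of 40.4 kb in WT and of 35 kb in dKO, which also held the promoters of Rps19, a ribosomal protein gene, and Arhgef1, a guanine nucleotide exchange factor. Islands over those promoters held 75.3% of the WT counts and 65.5% of the dKO counts. The region upstream differed by 0.23 in log2 ratio and the promoter region by -0.10.

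Cd79b, which encodes the Ig-beta chain (ENSMUSG00000040592.5; chr11:106172655-106176076, minus strand, 6 exons), had 12243 counts in 2 islands in WT and 10954 counts in 1 island in dKO. This came to 148 and 190 CPM (log2 0.36, interval 0.32 to 0.40), below the 1.5-fold rule. With 1 kb or 10 kb upstream the upstream WT island fell outside the window, and the log2 ratio was 1.16. The dKO island was 71.2 kb wide, and 0.173% of the islands in the dKO list were as wide. It joined what were 3 islands in WT and also covered the promoters of Scn4a, 2310007L24Rik and Gh. Over the whole merged region, with the third WT island included, the log2 ratio was 0.22, and per covered kb it was 0.05.

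Ebf1, the pioneer factor of B-cell commitment, had no promoter mark and a chain of islands deep inside the gene. Ebf1 (ENSMUSG00000057098.7; chr11:44430819-44821593, plus strand, 16 exons) held 6440 counts in WT, within 45.2 kb of islands, and 3075 in dKO, within 29 kb, or 77.9 and 53.3 CPM (log2 -0.55, interval -0.61 to -0.48), just short of the 1.5-fold rule. The region upstream of the gene had 20.9 CPM in WT and 20.7 in dKO. Regions inside the gene, from intron 6 to intron 10, had 4714 counts in WT and 1882 in dKO, or 57.0 and 32.6 CPM, with 2 of the 9 regions in WT alone and 1 in dKO alone. Over the regions of Ebf1 with islands in both genotypes, the log2 ratio was -0.46. Of these, 4 were lower by the 1.5-fold rule, with log2 ratios from -1.17 to -0.66. Both genotypes had 8 islands inside the gene. They covered 34.2 kb in WT but 18.4 kb in dKO, and per covered kb the log2 ratio was 0.09. The islands were narrower in dKO. The ratio per covered kb averages the 2 genotypes over different spans, and depth over the same bases is not given by the island totals. No promoter of another gene lay in any island counted for Ebf1.

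Spib, an Ets factor of mature B cells and plasmacytoid dendritic cells (ENSMUSG00000008193.6; chr7:51781365-51787441, minus strand, 6 exons), had 6620 counts in WT and 4249 in dKO, or 80.1 and 73.7 CPM (log2 -0.12, interval -0.18 to -0.06). The island over its promoter had 27.1 and 25.2 CPM. Between 15 and 30 kb upstream, 3 islands in WT were joined to 1 in dKO, with 42.6 and 42.7 CPM but a log2 ratio of -0.50 per covered kb. These also covered the promoters of Pold1, a DNA polymerase subunit gene, and Nr1h2, a liver X receptor gene. Islands with a promoter of another gene, among them also Mybpc2 and Napsa, held 95.2% of the WT counts and 100% of the dKO counts.

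Cd22, an inhibitory coreceptor of the B-cell receptor (ENSMUSG00000030577.6; chr7:31650421-31665361, minus strand, 17 exons), had 13587 counts in WT and 6495 in dKO, or 164 and 113 CPM (log2 -0.55, interval -0.59 to -0.50). In WT the whole gene lay in an island of 45.4 kb with 7344 counts, and 0.66% of islands in the WT list were as wide. In dKO the same stretch was broken up, and the island over the promoter with the EBF core was 9.6 kb wide with 946 counts. The WT island ran on past the gene over the promoters of Ffar1 and Ffar3, fatty acid receptor genes, where 2 dKO islands lay outside the window. Over the whole merged region, WT had 8595 counts and dKO 5324, and the log2 ratio was -0.17. The regions farther upstream, at the promoters of Mag and Hamp2, were at -0.65 and -0.74, and per covered kb at -0.39 and -0.68. With these outlying islands added, Cd22 as a whole was at -0.34.

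Ms4a1, which encodes CD20, had the lowest level of the set in WT (ENSMUSG00000024673.7; chr19:11324654-11340669, minus strand, 7 exons). WT had 1290 counts on 7.6 kb of islands and dKO 876 on 8 kb, or 15.6 and 15.2 CPM (log2 -0.04, interval -0.16 to 0.09). This value depended on the window and on weak islands, with 0.64 for 1 kb or 10 kb upstream, -0.77 for 100 kb, and -0.93 for islands of at least 5 CPM. The promoter region had 5.21 and 5.71 CPM, and an island 25 to 28 kb upstream had 8.26 and 7.09. A region 14 to 15 kb upstream was found in WT alone, and a region over exon 4 in dKO alone, with 176 and 138 counts. No promoter of another gene lay in these islands.

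Cd74, the invariant chain that guides MHC class II molecules, had the highest level of the set in WT (ENSMUSG00000024610.8; chr18:60963502-60972300, plus strand, 10 exons). It had 17696 counts in WT and 10273 in dKO, or 214 and 178 CPM (log2 -0.26, interval -0.30 to -0.23). With at least 50% of an island required inside the window the direction turned, to 0.57. Most of this lay in islands over the upstream promoters of Rps14 and Ndst1, which held 72.6% of the WT counts and 74.8% of the dKO counts. The region over the Cd74 promoter and gene had 27.6 CPM in WT and 24.7 in dKO (log2 -0.16). A region 14 to 25 kb upstream, free of other promoters, was 10.8 kb wide with 1538 counts in WT and 5.2 kb wide with 581 in dKO (log2 -0.88, and 0.17 per covered kb).

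**Figure D3:**
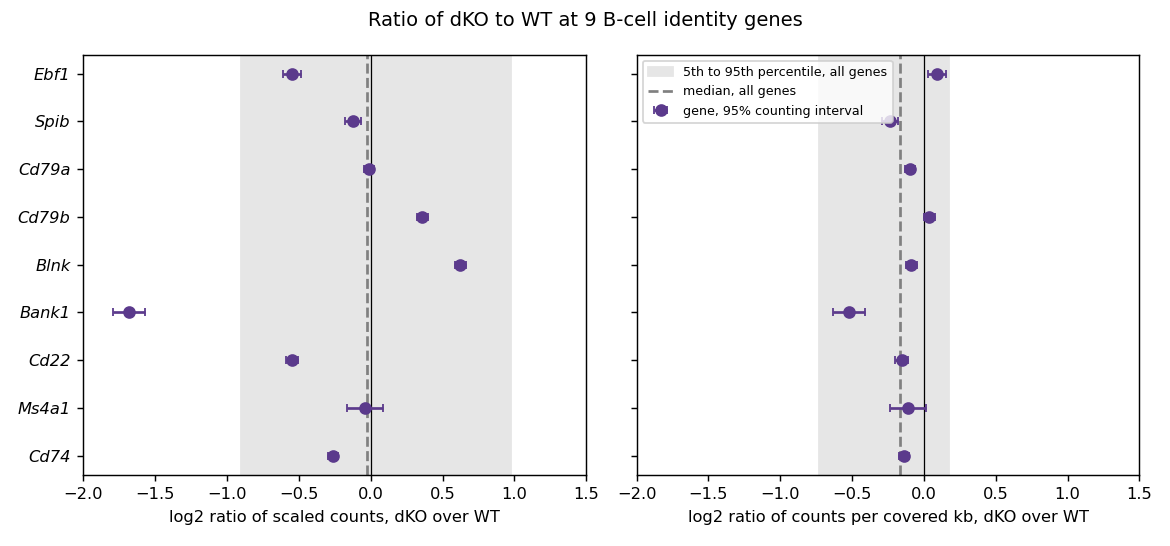
Log2 ratio of dKO to WT at each gene (points) for scaled counts (left) and for scaled counts per covered kb (right). Bars are 95% counting intervals. The gray band runs from the 5th to the 95th percentile of all genes, and the dashed line is their median. Bank1 at -1.68 is the gene outside the band on the left, and none is outside it on the right.

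Windows that include neighboring genes decided some of these values. With 1 kb upstream in place of 50 kb, Cd22 was at -1.70, and without islands over other promoters it was at 2.30, since the 45.4 kb WT island was then left out and the dKO islands in its place were not. Blnk stood at 1.57 without such islands. Cd79b and Spib had no islands left in at least 1 genotype by that rule. Bank1, Ebf1 and Ms4a1 have no such neighbor in their islands.

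The same measures were taken for wider B-cell gene lists. Of 261 genes that the study listed as enriched in B-lineage cells, chosen on other libraries, 250 were matched to the annotation. Of the 9 genes above, 5 were among them (Ebf1, Cd79a, Cd79b, Blnk and Ms4a1), whereas Spib, Bank1, Cd22 and Cd74 were not. Islands were found in both lists at 232 of the 250, in WT alone at 5, in dKO alone at 2 and in neither at 11. The shares with islands in 1 list alone over all genes were the 1.36% and 1.41% given above. Of the 232, 26 were higher in dKO by 1.5-fold (11.2%) and 24 lower (10.3%), near the 11.5% of all genes in each direction, with a median log2 ratio of -0.04. By scaled counts per covered kb, 3 were higher and 13 lower, beside 0.421% and 9.28% of all genes. Promoter islands were present at 215 in WT and 210 in dKO.

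**Figure D4:**
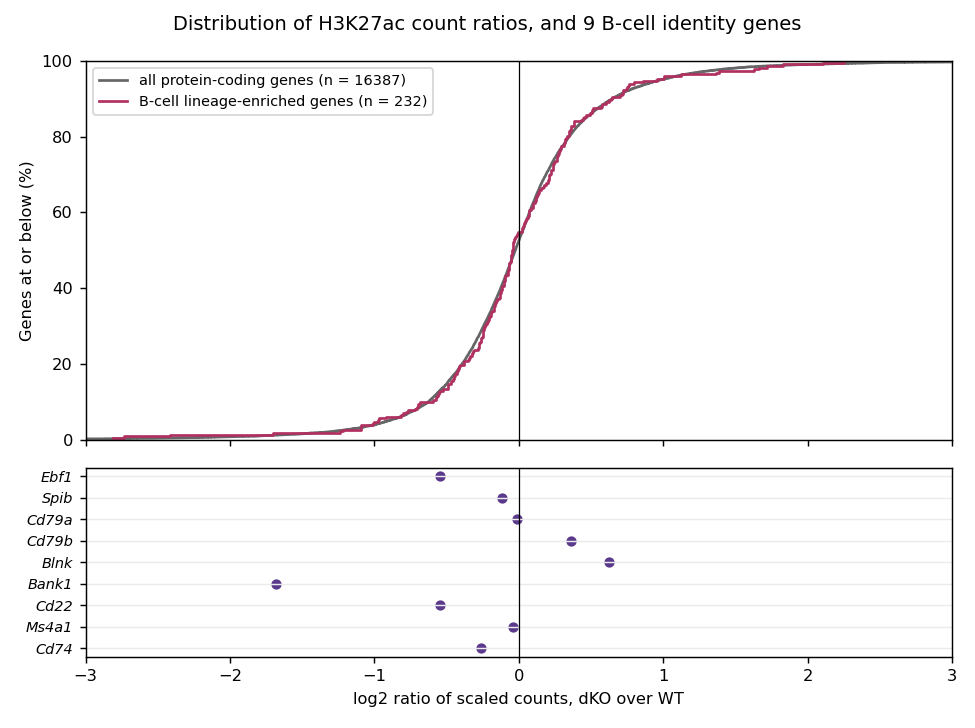
Cumulative share of genes at or below each log2 ratio of scaled counts, for the 16387 genes with a ratio (gray) and the 232 B-cell lineage-enriched genes (red), above the values of the 9 B-cell identity genes. The curves run close together, with medians of -0.03 and -0.04, and the 9 genes are spread on both sides of 0.

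Ly6k, a Ly6 family gene, was the gene of that list that was higher by both measures, with 28.5 CPM in WT and 136 CPM in dKO (log2 2.25, and 0.68 per covered kb), and it had a promoter island in dKO alone. Its islands, counted whole, covered 18.8 kb in WT and 55.8 kb in dKO. The part of neighboring genes in this difference was not tested. Il5ra, the interleukin-5 receptor alpha chain, was lower by both measures, with 86.7 and 53.9 CPM over 19 kb in each genotype (log2 -0.68). Islands in dKO alone were found at Sgpp2, a sphingosine phosphatase gene, with 724 counts, and at Chrnb4, a nicotinic receptor gene, with 639 counts. Those in WT alone were at 1810046K07Rik, Maged1, Rab39b, Rhobtb1 and Reln, with 177 to 595 counts each.

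In 4 short lists of genes that work beside the 9, calls are to be read against the 11.5% of all genes higher and 11.5% lower by the same rule. Of 20 genes of B-cell receptor signaling, all had islands in both lists, 3 were higher in dKO (Blk, Cr2 and Fcgr2b) and 2 lower (Siglecg and Btk), with a median of 0.03. Siglecg, an inhibitory lectin, had 40.03 CPM in WT and 7.94 in dKO (log2 -2.33), and the Src-family kinase gene Blk had 27.02 and 85.3 CPM (log2 1.66). Of 16 B-lineage transcription factors, 2 were higher (Prdm1 and Sfpi1) and 3 lower (Bcl11a, Pou2af1 and Mef2c), with a median of -0.14. Pou2af1, the B-cell coactivator of Oct factors, had 178 CPM in WT and 54.8 in dKO (log2 -1.70). Pax5, the factor that commits cells to the B lineage, had 62.2 CPM in WT and 68.7 in dKO, with a promoter island in dKO alone. Of 11 genes of MHC class II and its loading, none was higher and 1, the class II transactivator Ciita, was lower, at 115 and 54.0 CPM (log2 -1.09), with a promoter island in WT alone, and the median was 0.06. Of 18 other B-cell surface genes, 4 were higher (Fcrla, Cr2, Ly86 and Tnfrsf13b) and 3 lower (Fcer2a, Fcrl1 and Fcrl5), with a median of 0.15. No gene of the receptor signaling, transcription factor or class II lists passed the 1.5-fold rule per covered kb, and of the surface genes Cd40 was lower by it, at -0.65. The genes named from these 4 lists were named after their values were seen.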

How the data were processed

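H3K27ac ChIP-seq reads were aligned by the authors to mm9 with Bowtie2 2.2.5, filtered for mapping quality above 10, pooled by genotype and searched with SICER 1.1 (window 200 bp, gap 400 bp, FDR 0.01). The deposited values used here are raw counts per island, in 1 list per genotype; how duplicate reads were treated is not given in the sources used here. From these, counts were summed in Python 3.11.15 (NumPy 2.4.6) over islands that overlapped each gene window by at least 1 bp, with gene positions from GENCODE vM1 (mm9, 1 entry per symbol), and divided by the list total. A ratio of 1.5 (log2 0.58) either way was called. Input libraries were used by the authors in calling islands and have no values of their own here. Median scaling over regions common to both lists raises every log2 ratio by 0.07. The sums, merging and intervals were tested on simulated lists. Named were all 9 genes, genes whose promoter lies in their islands, and from the wider lists up to 5 genes per direction changed by both measures and up to 5 with islands in 1 list alone; genes named from the 4 short lists fall outside this rule and were chosen after their values were seen. The members and lists were chosen with earlier results of these data known. The values of 1 gene of the wider lists are not reported here.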

Additional observations from a re-analysis of the deposited data

How the results depend on the processing

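No paired analysis was possible because each genotype has 1 list of islands called on pooled libraries, and for the same reason no replicate could be left out. The number of the 9 genes called higher in dKO (1, Blnk) was 3 with 1 kb and 3 with 10 kb upstream (Cd79b, Blnk and Ms4a1), 2 among the 7 genes left without islands over other promoters (Blnk and Cd22), and 0 with 100 kb upstream, with at least 50% of the island in the window, with counts shared out by the part of the island in the window, per covered kb, with islands of at least 5 CPM, at a ratio of 2, and with merged regions touching the window or merged regions with islands in both lists only, alternatives chosen after seeing the data. The number called lower (1, Bank1) was 3 with 1 kb (Ebf1, Bank1 and Cd22), 2 with 10 kb (Ebf1 and Bank1) and 3 with 100 kb upstream (Bank1, Cd22 and Ms4a1), 3 with islands of at least 5 CPM (Ebf1, Bank1 and Ms4a1) and 0 per covered kb. The median log2 ratio (-0.12) was -0.20 with 10 kb and -0.23 with 100 kb upstream, -0.039 with at least 50% of the island in the window, -0.059 with counts shared out, -0.049 when scaled by counts of regions in both lists, -0.047 when scaled by their median ratio, -0.039 without islands over other promoters, -0.32 with islands of at least 5 CPM and -0.074 over regions with islands in both lists only. Blnk, a called gene, turned to -0.088 per covered kb, and genes that were not called also turned under some settings, such as Ms4a1, Cd74 and Cd22. For the B-cell lineage-enriched genes, the median was 0.029 with median scaling and -0.12 per covered kb, by which 3 were higher and 13 lower. Islands say only where SICER called enrichment: no island is not a count of 0, and the smallest islands held 58 counts in WT and 43 in dKO. The cause of the other changes was not tested.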
